A study of Mus musculus with 38 samples.

Results

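Tat, Fkbp5 and Per1 are genes that glucocorticoid hormones induce in liver, and the binding sites and acetylated chromatin around them were followed across hormone treatments and feeding states. Regions were chosen by position. Every region of 11 deposited peak lists that overlapped a window around the gene, with about 50 kb on each side, was taken, and no measured value was used to choose it. In genome build mm9 the windows were chr8:112464000-112574000 for Tat, chr17:28485000-28705000 for Fkbp5 and chr11:68858000-68973000 for Per1. They held 245 of the 278566 regions of the lists, with 85 regions at Tat, 72 at Fkbp5 and 88 at Per1.

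The study used chromatin immunoprecipitation with sequencing on liver and hepatocytes of C57BL/6 mice. Livers came from mice fed ad libitum or fasted for 10 or 24 h. Hepatocytes, the main cell type of the liver, were isolated by collagenase perfusion and were left untreated, given 10 nM glucagon, or given 10 nM glucagon together with 1.7 uM corticosterone, for 1 h. The lists analysed were the glucocorticoid receptor (GR) in hepatocytes given both hormones, the transcription factor CREB in hepatocytes of all 3 treatments, CREB and its phosphorylated form in fed and 24 h fasted liver, and the histone mark H3K27ac in fed, 10 h fasted and 24 h fasted liver. These 11 groups held 28 of the 38 samples, and the remaining 10 samples, of GR or C/EBPb in fed and 24 h fasted liver, were not analysed here. Lists of phospho-CREB in hepatocytes that could be tied to no sample were not used here either. There was no group with corticosterone alone, and the GR list used came from hepatocytes of the combined treatment only, so GR binding itself was not compared between hormones or feeding states.

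GR is a nuclear receptor that binds DNA when corticosterone, the main glucocorticoid of mice, occupies it. CREB binds cAMP response elements and is phosphorylated when glucagon raises cAMP in hepatocytes, and both hormones act on the liver during fasting. H3K27ac marks active promoters and enhancers. Tat encodes tyrosine aminotransferase, which breaks down tyrosine in the liver. Fkbp5 encodes FKBP51, a co-chaperone of Hsp90 that lowers the hormone affinity of GR. Per1 encodes a repressor of the circadian clock.

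Promoter sequences were read first, because CREB and GR have known target letters. The reference gave 1 promoter of 300 bp each for Tat and Fkbp5 and 2 for Per1, from RefSeq in build GRCm38.p6. Both strands were searched for the cAMP response element TGACGTCA, for its shorter form TGACG, which is part of the longer motif, and for ACANNNTGT, the core of the palindromic GR element. Of the genes described here, only the 2 Per1 promoters held a match, 1 match of TGACG in each. The match is in capitals, and the promoters are at chr11:69098699-69098998 and chr11:69099902-69100201 of GRCm38.p6, on the plus strand. The sequences are written from the upstream end.
Per1 promoter 1: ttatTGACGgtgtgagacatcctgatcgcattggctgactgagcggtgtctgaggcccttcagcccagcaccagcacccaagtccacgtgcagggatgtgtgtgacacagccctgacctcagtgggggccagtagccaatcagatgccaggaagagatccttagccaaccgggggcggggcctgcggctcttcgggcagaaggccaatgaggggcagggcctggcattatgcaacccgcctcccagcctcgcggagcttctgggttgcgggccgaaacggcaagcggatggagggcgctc
Per1 promoter 2: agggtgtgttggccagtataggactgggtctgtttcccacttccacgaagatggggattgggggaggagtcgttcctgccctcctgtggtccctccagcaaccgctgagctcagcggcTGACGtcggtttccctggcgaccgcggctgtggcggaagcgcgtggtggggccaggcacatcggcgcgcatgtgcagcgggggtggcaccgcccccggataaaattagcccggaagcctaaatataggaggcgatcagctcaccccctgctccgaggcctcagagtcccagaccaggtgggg
Of all 32851 promoters in the same table, 20.8% held TGACG, 1.79% held TGACGTCA and 6.85% held ACANNNTGT. A match is a description of these letters and not a measured site, and the absence of a match in the Tat and Fkbp5 promoters says only that the letters are not in these windows. The promoters are in another build than the lists, so they were not placed among the regions below.

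Each list gives 1 value per region, the highest tag density in it, and no value per library. Replicate spread could therefore not be measured and no change could be tested, and the differences described here are differences between lists of unknown read depth. The lists held between 6812 regions (phospho-CREB, fasted liver) and 47777 regions (H3K27ac, 10 h fasted liver). The densities were the authors' values and were used to rank regions within their list, with rank 1 as the densest. A rank is also given as a percentage from the top of the list. The untreated CREB list had 47596 regions and rests on 1 sample, and its name gives that library against itself. Without an mm9 annotation, regions could not be assigned to exons, introns or promoters, and the inner part of a window (the window without 50 kb at each end) stands for the surroundings of the gene itself. In the gene order of GRCm38.p6, the protein-coding neighbours were Marveld3 and Chst4 for Tat, Tulp1 and Armc12 for Fkbp5, and Vamp2 and Hes7 for Per1, and a region of a window may belong to a neighbour.

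GR bound the 3 loci in different layouts. Tat had 11 GR sites packed into 23.1 kb, Fkbp5 had 6 sites spread over 104.0 kb, and Per1 had 2 adjacent sites within 3.23 kb. All 11 Tat sites had at least 10 other GR sites within 25 kb, which held for 1.46% of all 11892 GR sites and for none of the Fkbp5 or Per1 sites. By density the 2 Per1 sites ranked highest, at 117 and 119 of the list. The densest Tat site ranked 195 and the densest Fkbp5 site ranked 263. All 19 GR sites ranked 3832 or better.

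Every one of the 19 GR sites overlapped a CREB region in hepatocytes given glucagon and corticosterone, against 42.7% of all GR sites. These were not 19 separate CREB regions, since 1 region of 11301 bp at Tat overlapped 5 of the sites. The overlap was 12 of 19 in untreated hepatocytes (39.1% of all GR sites) and 13 of 19 with glucagon alone (37.1%). With the densest 11892 regions of each CREB list, as many as the GR list has, it was 7 of 19 in untreated cells, 11 with glucagon and 19 with both hormones. The share of all GR sites under this cut was not computed, so these counts cannot be set against GR sites in general. The sites of the windows are dense ones. With the full lists, shares were higher among the 3944 GR sites that ranked 3832 or better. The shares were 85.5% for both hormones, 74.6% for glucagon and 69.2% for untreated cells. This cut is the rank of the weakest of the 19 sites, so the shares are not matched to the sites in density. At 11 of the 19 sites CREB was listed in all 3 hepatocyte lists, against 28.9% of all GR sites. At 5 of the 19, CREB was listed only with both hormones, against 5.58% of all GR sites and 8.87% of those that ranked 3832 or better. Of these 5 sites, 4 were at Fkbp5 and 1 at Tat, so the count describes mainly Fkbp5. A CREB region that is absent from a list was not called there, which is not a measured 0.

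**Figure D1:**
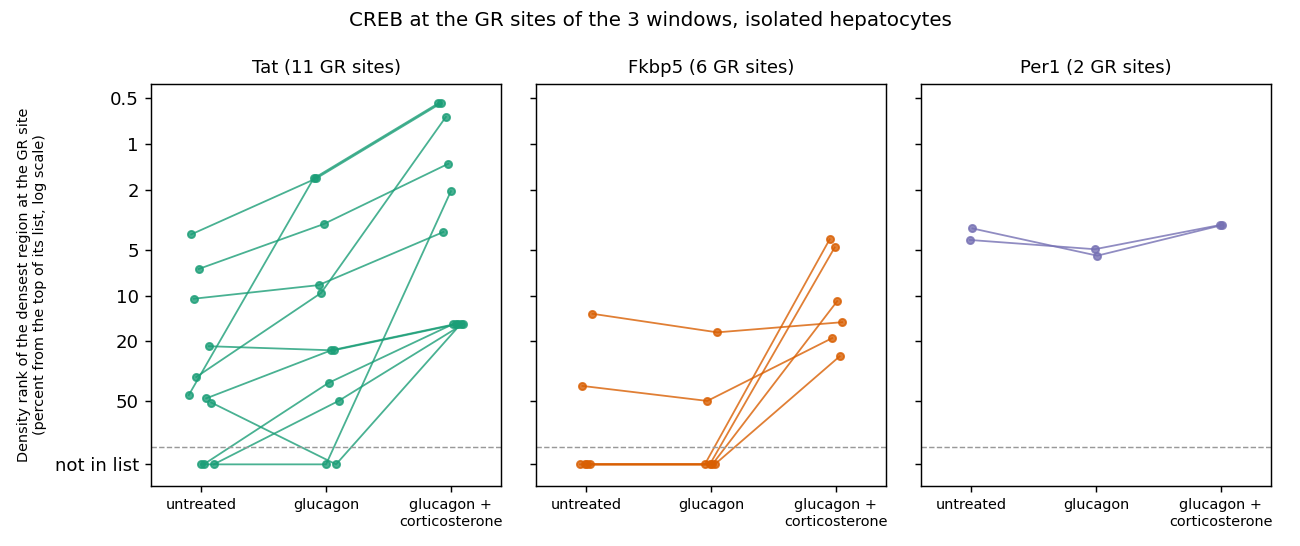
Rank of the CREB region at each GR site of Tat, Fkbp5 and Per1, as a percentage from the top of its list on an inverted log axis, for untreated, glucagon and glucagon plus corticosterone hepatocytes. Points below the dashed line have no CREB region in that list; 4 Fkbp5 sites and 1 Tat site are in the list only with both hormones, while the Per1 sites are in all 3 lists.

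At Tat, the densest GR site was chr8:112507719-112508498, with a density of 42.6 and rank 195. The CREB region over it had a density of 12.8 and rank 16397 of 47596 in untreated cells. With glucagon it had a density of 35.9 and rank 2717 of 28229. With both hormones it had a density of 263 and rank 279 of 42090, within the top 0.663% of that list. Unequal lists cannot be compared by rank, so CREB clusters that all 3 hepatocyte lists contain were ranked among themselves. Of these 18620 clusters, the Tat cluster chr8:112507560-112508619 lay 71.6% from the top in untreated cells, 14.2% with glucagon and 1.48% with both hormones. This was the farthest shift among the clusters of the 3 windows at a GR site.

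The other Tat sites on the low-coordinate side of the inner part, except chr8:112511496-112512201, had CREB in all 3 hepatocyte lists. The Tat promoter lies on the plus strand, so this is the upstream side of the gene. At chr8:112502993-112503871, a GR site of density 35.1 and rank 280, CREB ranked 1879 in untreated cells, 478 with glucagon and 227 with both hormones. The CREB region with both hormones, chr8:112502184-112504016, had a density of 282 and was the densest CREB region of the Tat window in any of the 3 lists by rank. It also spanned the weaker GR site chr8:112502295-112502619, which had a density of 7.36 and rank 3110. At chr8:112510175-112510887, GR rank 693, CREB ranked 3180, 955 and 570 in the untreated, glucagon and combined lists. At chr8:112506123-112507004, GR rank 1804, the CREB ranks were 5020, 2412 and 1604. These sites had CREB in untreated cells already.

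The site chr8:112511496-112512201 was the exception at Tat. Its GR density was 32.9, at rank 311, and no CREB region overlapped it in untreated or glucagon-treated hepatocytes. The glucagon CREB region chr8:112510053-112511020 ended within 500 bp of this GR site. With a gap of up to 500 bp, the site therefore counted as having CREB with glucagon. With both hormones a CREB region of density 144, chr8:112511300-112512408, ranked 864 of 42090. In liver the same position had no CREB region in the fed list, and the fasted list held chr8:112511626-112512198, with density 18.2 and rank 2605 of 11339.

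Over the inner part of the Tat window, GR and CREB were spread over long stretches. The 5 GR sites there were chr8:112514221-112515979 (rank 1282), chr8:112516383-112517096 (rank 1989), chr8:112517215-112519395 (rank 2479), chr8:112520015-112521224 (rank 1701) and chr8:112521665-112525435 (rank 516). The last was 3770 bp wide, against a median of 420 bp in the GR list. With both hormones, 1 CREB region, chr8:112513822-112525123, overlapped all 5, and ended before the end of the last. At 11301 bp it was the widest of the 42090 regions of that list, which had a median width of 651 bp. Its density of 32.2 ranked only 6477, so it was broad rather than high. Untreated cells had 3 separate CREB regions in the inner part and glucagon-treated cells had 7.

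**Figure D2:**
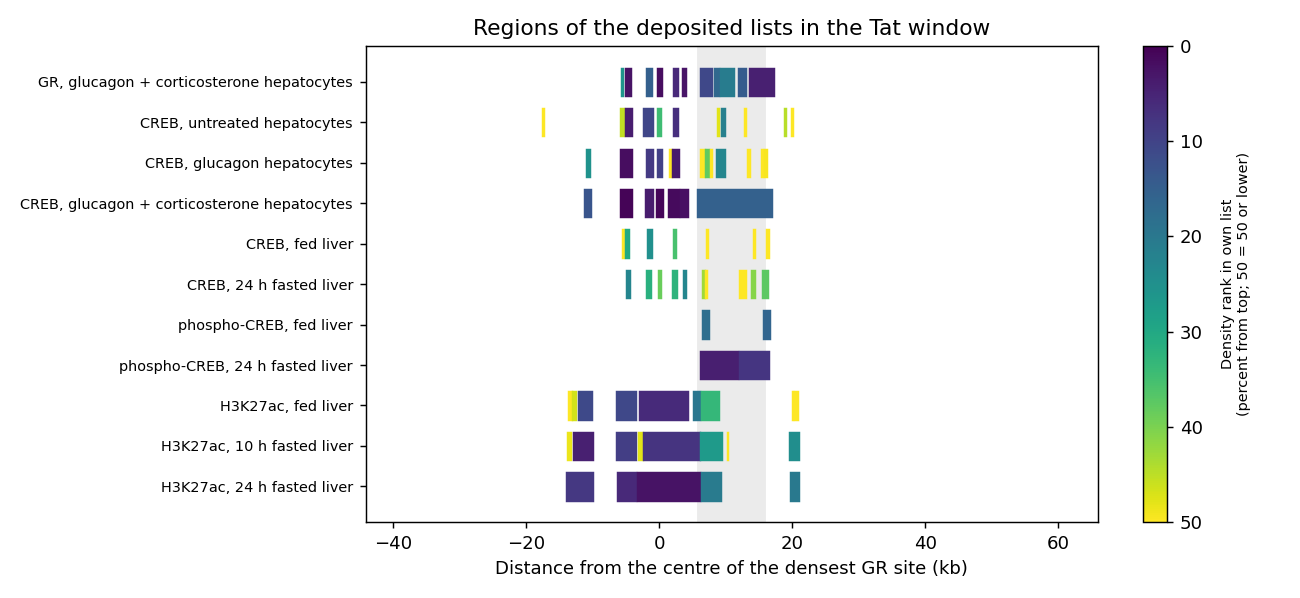
Regions of the 11 lists in the Tat window by distance from the densest GR site in kb, with 1 row per list, colour by density rank in the list (percent from the top, with 50 for 50 or lower) and the inner part of the window in grey. The 11 GR sites form a single group, and the CREB row with both hormones and the fasted phospho-CREB row each show wide regions over the inner part.

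At Fkbp5, CREB was listed at most GR sites only when corticosterone had been added to glucagon. The densest GR site, chr17:28556895-28557740, had a density of 35.8 and rank 263. Its CREB region with both hormones, chr17:28556717-28557836, had a density of 88.2 and rank 1791 of 42090, and it was the densest CREB region of the window in that list. The GR site chr17:28600701-28601362 (density 18.6, rank 777) had a CREB region of density 81.0 and rank 2030. Neither position had a CREB region in untreated or glucagon-treated cells, nor in fed or fasted liver.

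The same held for a pair of GR sites farther along the window. At chr17:28649592-28650261, with a GR density of 13.2 and rank 1343, the combined list gave CREB a density of 42.7 and rank 4579. At chr17:28654643-28655379, the GR density of 33.3 ranked 299, while the CREB density of 21.6 ranked 10612. High GR density and high CREB density thus did not go together at each site. When a gap of up to 500 bp counted as overlap, the number of GR sites with CREB only in the combined list was 4 over the 3 windows. All 4 were at Fkbp5, and the Tat site was the one lost.

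CREB at the remaining pair of Fkbp5 GR sites was listed under every hepatocyte treatment. The weakest GR site, chr17:28597488-28597750, had a density of 6.28 and rank 3832. Its CREB cluster lay 77.4% from the top of the 18620 shared clusters in untreated cells, 66.5% with glucagon and 39.0% with both hormones. At chr17:28659687-28660445, with GR density 17.8 and rank 835, CREB was in all 5 CREB lists of hepatocytes and liver. Its shared rank was similar across hormones, at 33.2% from the top in untreated cells, 25.6% with glucagon and 31.2% with both. This site was above the inner part of the window, and its CREB region was the densest of the window in the untreated list (rank 6306) and the glucagon list (rank 4945). It carried the only CREB region of the Fkbp5 window in fed liver and the only such region in fasted liver.

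**Figure D3:**
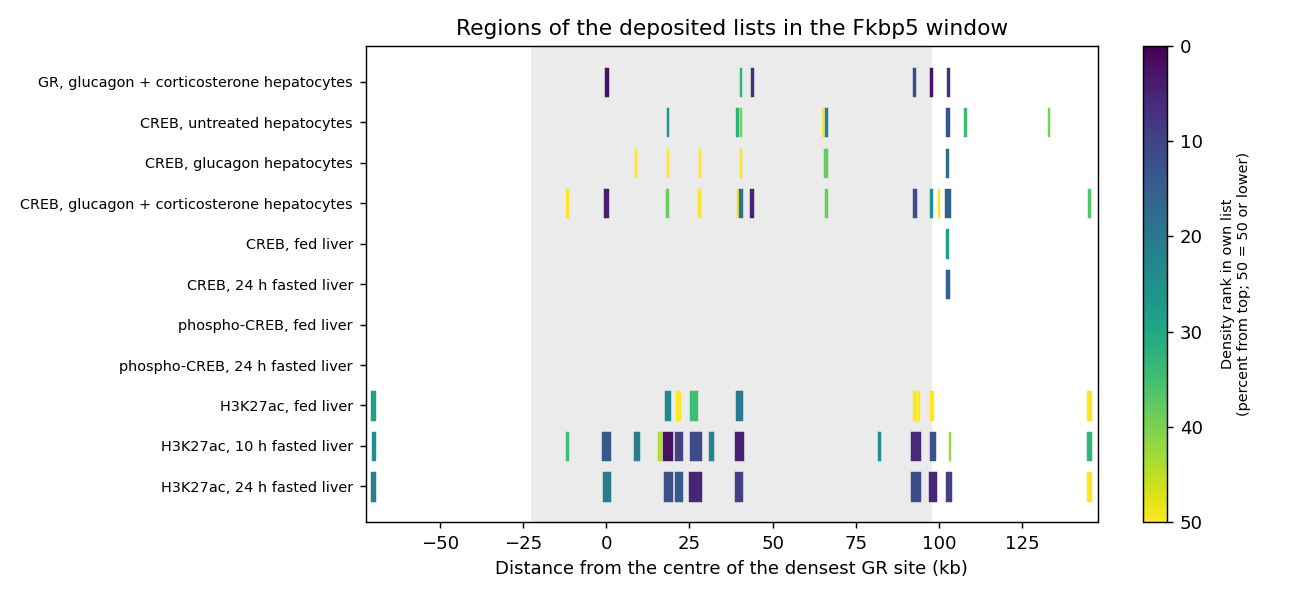
Regions of the 11 lists in the Fkbp5 window by distance from the densest GR site in kb, with 1 row per list, colour by density rank in the list (percent from the top, with 50 for 50 or lower) and the inner part of the window in grey. CREB with both hormones has 13 regions against 8 in untreated and 6 in glucagon-treated cells, and both phospho-CREB rows are empty.

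At Per1, CREB was present at the GR sites under every hepatocyte treatment and in both feeding states. The GR sites chr11:68910107-68911156 and chr11:68911943-68913335 had nearly equal densities of 57.33 and 57.27, at ranks 117 and 119. CREB at the first ranked 2047 in untreated cells, 1398 with glucagon and 1443 with both hormones. At the second it ranked 1719, 1540 and 1443. With both hormones a single CREB region, chr11:68910063-68913941, of density 103, covered both sites. Among shared clusters this stretch lay 9.20%, 7.41% and 7.51% from the top in the untreated, glucagon and combined lists, so its standing was about the same.

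Most CREB regions of the Per1 window were away from GR. This is not particular to Per1, since 15290 of all 18620 shared CREB clusters had no GR site. The share of each whole CREB list outside GR sites was not computed. In the Per1 window, the combined list had 14 CREB regions, 13 of them outside GR sites, and the untreated list had 13 with 11 outside. The densest was chr11:68875558-68876919 in untreated cells, with density 156 and rank 597 of 47596. The matching region ranked 1086 of 28229 with glucagon and 1047 of 42090 with both hormones. This CREB region was also the densest of the window in fed liver, where chr11:68875791-68876970 ranked 1106 of 13142, and in fasted liver, where chr11:68875927-68876825 ranked 1312 of 11339.

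**Figure D4:**
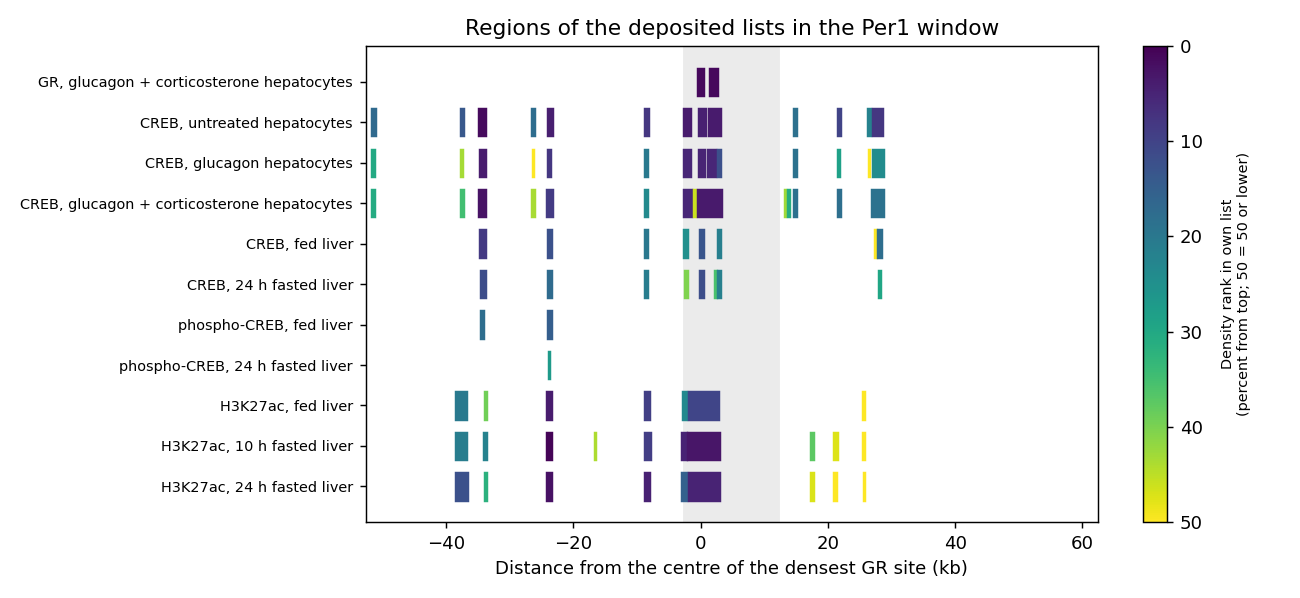
Regions of the 11 lists in the Per1 window by distance from the densest GR site in kb, with 1 row per list, colour by density rank in the list (percent from the top, with 50 for 50 or lower) and the inner part of the window in grey. The 2 GR sites are adjacent, and CREB regions without GR recur at the same positions in the hepatocyte and liver rows.

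In the 3 windows, most of the shared CREB clusters that ranked higher with both hormones than in untreated cells were at Tat, and most of those that ranked lower were at Per1. Of the 20 shared clusters in the windows, 8 overlapped a GR site (5 at Tat, 2 at Fkbp5, 1 at Per1) and 12 did not (2 at Fkbp5, 10 at Per1). A cluster was counted as higher or lower when its place among the 18620 moved by 10 percentage points or more, so a cluster already in the first 10% could not be counted as higher. From untreated to both hormones, 5 of the 8 clusters at GR ranked higher and 0 lower. Of these 5, 4 were at Tat, 1 at Fkbp5 and 0 at Per1, where the single cluster started in the first 10%. Of all shared clusters, 25.2% ranked higher and 34.1% lower, and of those at a GR site 65.0% ranked higher. The share at Tat, Fkbp5 and Per1 was therefore near that of GR-bound CREB clusters in general. Of the 12 clusters without GR, 0 ranked higher and 8 lower, 6 at Per1 and 2 at Fkbp5. Tat had no shared cluster without GR, so GR and locus cannot be told apart in these counts.

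The steps of glucagon and of corticosterone were also counted separately. From untreated to glucagon, 5 of the 8 clusters at GR ranked higher, beside 24.9% of all clusters and 50.9% of those at GR. Among the 12 without GR, 1 ranked higher and 5 lower, beside 28.1% lower over all clusters. From glucagon to both hormones, 2 of the 8 at GR ranked higher, beside 20.7% of all clusters and 36.5% of those at GR. At this step 3 of the 8 clusters started in the first 10%, so the counts of the steps cannot be compared. Of the 12 without GR, 4 ranked lower, beside 22.6% of all clusters. The median shift from untreated to both hormones was 16.1 points toward the top for the 8 clusters at GR, 20.5 points for all clusters at GR and -3.58 points for all clusters. It was -15.1 points for the 12 clusters of the windows without GR and -6.26 points for all clusters without GR. The 4 Fkbp5 sites and the Tat site with CREB only in the combined list are in none of these counts, since they have no rank in the other lists. The 3 lists come from different numbers of samples, and what that contributes was not tested.

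In liver, the GR sites of hormone-treated hepatocytes were used as positions, and CREB was present at Tat and Per1 more than at Fkbp5. The fed list had 7 CREB regions at Tat, 1 at Fkbp5 and 8 at Per1, and the fasted list had 10, 1 and 8. CREB was listed at 9 of the 19 in fed liver and 11 in 24 h fasted liver, against 16.1% and 16.7% of all GR sites. The sites of the windows are dense ones, and for liver CREB the shares among GR sites that ranked 3832 or better were not computed. At 3 sites CREB was listed in the fasted and not in the fed liver (4.6% of all GR sites), all at Tat, and at 1 Tat site it was listed in the fed and not in the fasted liver (4.03%). Among the 6822 clusters in both liver CREB lists, 4 of the 14 in the windows ranked at least 10 points higher after fasting (12.8% of all) and 2 ranked lower (13.5%). The higher ones were 3 of 6 at Tat and the single Fkbp5 cluster. At that Fkbp5 cluster, chr17:28659317-28660253, the density was 13.8 in fed and 26.9 in fasted liver, and the shared rank went from 51.6% to 24.8% from the top. At Per1 none of 7 ranked higher and 2 ranked lower. The densest liver CREB region of the Tat window was chr8:112506264-112506990 in the fed list (density 15.8, rank 3285) and chr8:112503055-112503704 in the fasted list (density 18.3, rank 2583).

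Liver CREB in the windows lay where hepatocytes had it. All 16 fed and all 19 fasted liver CREB regions of the windows overlapped a CREB region of hepatocytes given both hormones, against 47.5% and 44.7% of the whole fed and fasted lists. At Tat several of them lay in the same wide hepatocyte region, chr8:112513822-112525123 of 11301 bp, so they are not separate matches.

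Phospho-CREB in the windows was few in regions and broad at Tat. The fed list had 2 regions at Tat, 2 at Per1 and 0 at Fkbp5, and the fasted list had 2, 1 and 0. The fed Tat regions chr8:112514515-112515596 (density 17.5, rank 1391 of 7669) and chr8:112523747-112524715 (density 19.4, rank 1246) were 1081 and 968 bp wide. In fasted liver chr8:112514171-112519979, with density 39.3 and rank 283 of 6812, was 5808 bp wide, and chr8:112520116-112524652, with density 26.4 and rank 521, was 4536 bp wide. Only 0.0734% and 0.147% of the fasted list was at least as wide, and the list median was 411 bp. Phospho-CREB was at 2 of the 19 GR sites in fed liver (9.99% of all GR sites) and at 5 in fasted liver (9.33%), all at Tat. The 5 sites are not 5 separate phospho-CREB regions. Both states had 2 regions at Tat, and the wider fasted ones overlapped 3 and 2 neighbouring GR sites. Here too, the shares among dense GR sites were not computed.

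Phospho-CREB at Per1 lay away from the GR sites, and the share of the phospho-CREB lists outside GR sites was not computed. The fed list had chr11:68886557-68887198 (density 21.3, rank 1127) and chr11:68875967-68876640 (density 17.8, rank 1373). The fasted list had chr11:68886620-68886956 (density 9.72, rank 1842 of 6812). A z-score ranking put this fasted region 91.4% from the top of its list, far below its place by density, so its standing rests on the measure chosen.

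H3K27ac covered most GR sites already in fed liver. It was listed at 13 of the 19 in fed liver (19.9% of all GR sites), 16 in 10 h fasted liver (31.6%) and 16 in 24 h fasted liver (21.8%). These sites did not each have a separate H3K27ac region, since at Tat 3 regions of the 24 h list overlapped 9 GR sites. The sites of the windows are dense ones, and for these counts the shares among GR sites that ranked 3832 or better were not computed. At 3 sites, 2 at Fkbp5 and 1 at Tat, H3K27ac was listed after 24 h of fasting and not in the fed state. This compares with 2.88% of all GR sites and 6.54% of those that ranked 3832 or better. At the Tat site the 24 h region covered only the edge of the GR site, and the fed region ended just before it. No site of the windows had H3K27ac in fed liver only, against 0.975% of all GR sites.

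**Figure D5:**
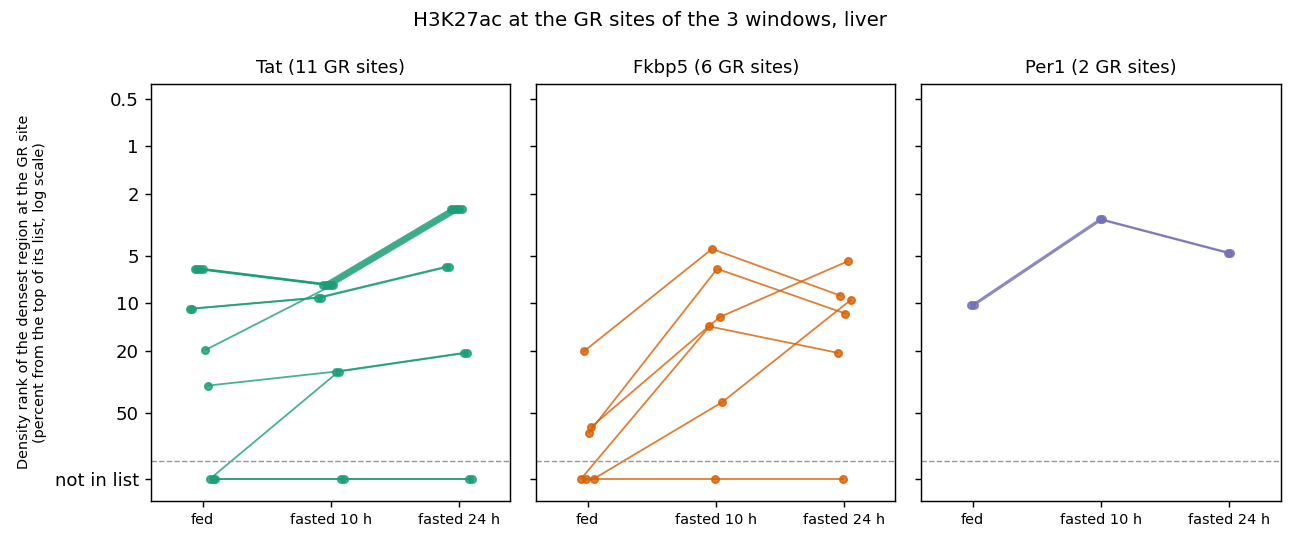
Rank of the H3K27ac region at each GR site of Tat, Fkbp5 and Per1, as a percentage from the top of its list on an inverted log axis, for fed, 10 h fasted and 24 h fasted liver. Points below the dashed line have no H3K27ac region in that list; 2 Fkbp5 sites and 1 Tat site are in both fasted lists and not in the fed list.

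The Fkbp5 window held most of the shared H3K27ac regions that ranked at least 10 points higher after fasting. At the densest GR site, fed liver had no H3K27ac region, 10 h fasted liver had chr17:28556174-28558486 (density 37.1, rank 6696 of 47777) and 24 h fasted liver had chr17:28556329-28558533 (density 32.3, rank 6615 of 32103). At the GR site above the inner part, fed liver had none, 10 h had density 14.0 at rank 20281 and 24 h had density 50.3 at rank 3057. At the GR site chr17:28600701-28601362, none of the 3 H3K27ac lists had a region. Elsewhere, small regions of the fed list matched a single wider region in each fasted list. The cluster chr17:28648999-28651639, made of 3 regions in fed liver and 1 in each fasted list, lay 77.6% from the top of the 21402 clusters common to the 3 lists in fed liver, 13.3% at 10 h and 17.1% at 24 h. The cluster chr17:28654383-28656328 lay 73.0%, 26.7% and 7.98% from the top.

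Ranked among those shared H3K27ac clusters, 6 of 8 at Fkbp5 were at least 10 points higher at 24 h than in the fed state, with 2 of 5 at Tat and 0 of 7 at Per1. The 7 at Per1 all moved toward the top, by 1.93 to 9.22 points. A cluster already in the first 10% in fed liver could not be counted as higher. The fed list had 9, 11 and 7 H3K27ac regions at Tat, Fkbp5 and Per1, the 10 h list had 8, 16 and 10, and the 24 h list had 5, 10 and 9. Over the 3 windows the shared ranks made 8 of 20 higher and 0 lower, beside 18.8% higher and 19.4% lower of all clusters. At 10 h 8 of 20 were higher and 3 lower, beside 23.5% and 23.6% of all, with 6 of the 8 at Fkbp5. The densest H3K27ac region of the Fkbp5 window was chr17:28596274-28598069 in the fed list (rank 6054), chr17:28574401-28577084 at 10 h (density 72.8, rank 948) and chr17:28582303-28585823 at 24 h (density 63.9, rank 1663). The latter 2 had no GR site. Clusters without a GR site were also among those that ranked higher, such as chr17:28577860-28580023, which lay 76.8%, 22.2% and 21.0% from the top.

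At Tat, H3K27ac was dense over the upstream GR sites in every feeding state, and less so over the inner part. The region over 4 of the 6 upstream GR sites, chr8:112505089-112512502 in the fed list, had density 65.3 and rank 1800 of 29917. In the 10 h list, chr8:112505639-112514270 had density 49.9 and rank 3627, and in the 24 h list chr8:112504715-112514270 had density 79.6 and rank 798. Among shared clusters it lay 8.31%, 16.7% and 3.70% from the top, so both fasted states were within 10 points of the fed state. The other upstream GR sites lay under chr8:112501649-112504565 in the fed list, with density 52.5 and rank 3226, and its matching regions ranked 4380 at 10 h and 1872 at 24 h. The densest H3K27ac region of the Tat window at 10 h was elsewhere, at chr8:112495194-112498118 (density 59.2, rank 2137). In the inner part, the shared cluster chr8:112514286-112517564 overlapped 3 GR sites. It lay 44.0% from the top in fed liver, 55.9% at 10 h and 29.9% at 24 h. Against the fed state it shifted by -11.9 points at 10 h and by 14.1 points toward the top at 24 h. The GR site chr8:112517215-112519395 had H3K27ac at 10 h and 24 h and not in the fed list. The fed region chr8:112514390-112517026 ended just before this GR site, and the 24 h region chr8:112514392-112517424 covered only its edge. With an overlap of 50% of the shorter region this site no longer counted at 24 h, and 15 GR sites overlapped 24 h H3K27ac. The last 2 GR sites of the inner part, which overlapped broad CREB and phospho-CREB, had no H3K27ac region in any list.

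At Per1, an H3K27ac region lay over both GR sites in every feeding state. It had density 53.4 and rank 3089 in fed liver, 66.5 and rank 1396 at 10 h, and 65.5 and rank 1534 at 24 h. Its place among shared clusters was 14.2%, 6.47% and 7.09% from the top, moves of under 10 points, and little room is left near the top of a ranking. The densest H3K27ac region of the window was elsewhere, at chr11:68886312-68887211 in the fed list, with density 74.4 and rank 1163. It ranked 230 at 10 h and 745 at 24 h, and it overlapped the position that carried phospho-CREB in both feeding states.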

How the data were processed

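Chromatin immunoprecipitation of mouse liver and hepatocytes was analysed from 11 of the 13 deposited peak lists. A further 2 lists of hepatocyte phospho-CREB (8 value columns) could be tied to no sample and were left out. CASAVA 1.8 and build mm9 are named per the submitters' processing notes. The aligner and the caller settings were not given in the sources used here. Per the file headers, each region has a highest tag density (a signal) and a z-score. The authors made this signal and score per region, and their normalisation is not stated, so both were used only within a list.

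Members and lists were chosen with earlier results of these data known. Regions sharing at least 1 base were called overlapping, and ranks were by density. Regions named are all GR sites of the windows and, for the other lists, the densest region of a window and those at GR sites. Some shared clusters in liver and in Fkbp5 were named after their values were seen. The overlap code was tested on 20 pairs of simulated lists. No test between conditions was made. Alternatives were z-score ranks, windows with flanks of 25 kb or none, the upper 50% of each list, CREB and H3K27ac lists cut to the length of the GR list, a gap of up to 500 bp and an overlap of 50% of the shorter region. Other glucocorticoid target genes were not described, since no annotation of mm9 was used here. Promoters came from RefSeq (GRCm38.p6). Python 3.11.15, numpy 2.4.6, pandas 2.3.3 and matplotlib 3.10.9 were used.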

Additional observations from a re-analysis of the deposited data

How the results depend on the processing

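With flanks of 25 kb in place of 50 kb, all 11 counts of regions per list stayed within 1.5 times. Without the 50 kb flanks the windows held 12 GR sites. CREB regions numbered 11 in untreated, 16 in glucagon and 14 in doubly treated hepatocytes, 5 in fed and 9 in fasted liver. Phospho-CREB regions numbered 2 in fed liver, and H3K27ac regions 12 in fed, 18 in 10 h and 11 in 24 h fasted liver. All 12 of those GR sites overlapped CREB with both hormones, 6 did in untreated cells, 7 with glucagon, and 9 overlapped 24 h H3K27ac. In the upper 50% of each list, 21 glucagon CREB regions and 16 fed H3K27ac regions were left. With lists cut to the length of the GR list, 7 of 19 GR sites overlapped untreated CREB, and the share of all GR sites under this cut was not computed.

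The count of 5 GR sites with CREB only in the combined list was 4 with a gap of up to 500 bp (5.07% of all GR sites), 5 with the CREB lists cut to the length of the glucagon list (4.06%) and 5 with a 50% overlap (5.82%). These 3 alternatives were added after the data were seen, as was the ranking of shared liver clusters. The 5 of 8 clusters at GR that ranked higher were also 5 by z-score, and 5 of 7 with a 50% overlap. Ranking by z-score instead of density shifted most percentages from the top. No paired analysis was possible because each list gives no value per library. Read depth is unknown, so absence from a list sets no limit on binding.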
